A study of Homo sapiens with 2 samples.

Results

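The genes examined were 60 regulators and targets of the cell cycle, comprising the E2F factors and their partners, cyclins and cyclin-dependent kinases (CDKs), replication licensing and DNA synthesis genes, CDK inhibitors and mitotic genes. They were taken from a list, chosen by name, out of 20037 protein-coding genes with a RefSeq transcript (assembly GRCh38.p14), and all 60 were found in that annotation. A gene was counted as occupied when the midpoint of a PHF8 peak lay within 1 kb of its annotated start or end. Occupancy came from chromatin immunoprecipitation followed by sequencing (ChIP-seq) with an antibody against PHF8 in RKO, an established human colon carcinoma line. One group of RKO cells had received vector, and the other had received a plasmid for APOC2 overexpression, so both had been through transfection and differed by the apolipoprotein gene on the plasmid. Each condition had 1 library, and the peaks had been called per library, so no difference between the conditions could be set against variation between replicates. The labels state neither how long the plasmids were expressed nor whether the cells were a pool or a clone. The level of APOC2 and the colon identity of the cells cannot be read from a peak table.

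PHF8 is a histone lysine demethylase whose PHD finger binds trimethylated lysine 4 of histone H3, a mark of active promoters, and whose catalytic domain removes methyl groups from H3 lysine 9 and H4 lysine 20. It has been described at promoters controlled by E2F1, together with HCF-1, the product of HCFC1, and it has been linked to progress through the cell cycle. In G1 the pocket proteins (RB1, RBL1, RBL2) hold E2F factors inactive at genes for DNA replication. Cyclin D and cyclin E kinases release them at the G1/S transition, while genes of G2 and mitosis are driven later, through MYBL2, FOXM1 and promoter elements named CHR and CCAAT. The question of the series was which PHF8 targets depend on APOC2, and here it was asked of these genes.

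There were 4015 peaks with vector and 8928 with APOC2. Read totals were unknown. On the assumption of 1 common control, the depth with APOC2 was 0.824 times that with vector. Over all protein-coding genes, 5.95% had a vector peak and 23.8% an APOC2 peak. These shares are the background for the counts per table at the 1 kb window. Counts of other classes or under other rules have another background. On chromosomes 8 and 9 combined the shares were 23.8% and 40%, respectively.

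Before the values, 9 promoter stretches show what is upstream of members with and without a peak. Each is the sequence just before the RefSeq gene start (GRCh38.p14, read 5′ to 3′ on the strand of the gene), with capitals for E2F motifs (TTTCCCGC, TTTGGCGC, TTTCGCGC or TTTGCCGC), CHR motifs (TTTGAA or TTCGAA) and CCAAT boxes (CCAAT), each on either strand. The first belongs to E2F4, the member with the strongest peak, and it holds none of these motifs. CDT1 and PCNA hold an E2F motif and CDC20 a CHR, and all 3 had a peak in the APOC2 table. E2F1, RBL1 and MCM6 hold E2F motifs and PLK1 and CCNB2 hold a CHR, and none of these 5 had a peak in either table.
E2F4 (chr16:67192005-67192154, plus strand): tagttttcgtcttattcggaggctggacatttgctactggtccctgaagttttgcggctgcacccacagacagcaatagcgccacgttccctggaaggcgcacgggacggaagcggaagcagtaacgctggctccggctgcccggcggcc
CDT1 (chr16:88803639-88803788, plus strand): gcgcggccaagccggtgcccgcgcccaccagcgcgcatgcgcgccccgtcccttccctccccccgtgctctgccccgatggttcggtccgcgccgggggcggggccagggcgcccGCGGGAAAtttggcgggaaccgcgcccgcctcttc
PCNA (chr20:5126623-5126772, minus strand): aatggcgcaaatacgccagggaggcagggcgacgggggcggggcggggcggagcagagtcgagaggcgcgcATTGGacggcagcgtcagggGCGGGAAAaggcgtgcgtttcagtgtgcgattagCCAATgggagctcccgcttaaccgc
CDC20 (chr1:43358831-43358980, plus strand): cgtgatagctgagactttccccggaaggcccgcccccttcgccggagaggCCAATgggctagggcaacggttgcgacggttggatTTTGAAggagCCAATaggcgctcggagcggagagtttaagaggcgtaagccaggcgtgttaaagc
E2F1 (chr20:33686386-33686535, minus strand): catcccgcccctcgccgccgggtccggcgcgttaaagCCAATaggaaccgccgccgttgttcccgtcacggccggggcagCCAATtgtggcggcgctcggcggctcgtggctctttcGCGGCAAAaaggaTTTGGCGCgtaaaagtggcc
RBL1 (chr20:37095998-37096147, minus strand): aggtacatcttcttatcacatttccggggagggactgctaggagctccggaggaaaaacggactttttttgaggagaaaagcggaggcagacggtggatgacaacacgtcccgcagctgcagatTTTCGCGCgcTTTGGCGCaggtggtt
MCM6 (chr2:135876444-135876593, minus strand): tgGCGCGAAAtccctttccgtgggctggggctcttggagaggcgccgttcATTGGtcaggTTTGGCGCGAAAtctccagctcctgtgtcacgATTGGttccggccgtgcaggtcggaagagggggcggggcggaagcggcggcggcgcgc
PLK1 (chr16:23678739-23678888, plus strand): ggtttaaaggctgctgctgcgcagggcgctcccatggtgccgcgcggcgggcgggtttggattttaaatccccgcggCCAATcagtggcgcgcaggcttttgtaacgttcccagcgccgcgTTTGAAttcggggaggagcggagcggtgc
CCNB2 (chr15:59104996-59105145, plus strand): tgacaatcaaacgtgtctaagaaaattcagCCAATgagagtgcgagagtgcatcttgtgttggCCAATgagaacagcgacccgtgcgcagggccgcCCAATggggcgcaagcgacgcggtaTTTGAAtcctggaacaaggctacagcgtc

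Of the 60 genes, 7 were occupied in the vector table (11.7%, 95% Wilson interval 5.77 to 22.2%, beside 5.95% of all protein-coding genes). With APOC2, 16 were occupied (26.7%, 17.1 to 39.0%, beside 23.8%). All 7 vector genes were among the 16. These were E2F4, E2F7, CDK2, ORC6, PCNA, CDKN2A and CDC20 (7 of 60 occupied in both tables, beside 5.84% of all protein-coding genes). The 9 with a peak in the APOC2 table only were E2F5, CDK6, CCNE2, CDC45, CDT1, GMNN, MCM4, TYMS and FOXM1 (9 of 60, beside 18%). No member had a peak in the vector table only, a class that held 0.105% of protein-coding genes. The remaining 44 members had a peak at an annotated end in neither table, as did 76% of protein-coding genes. The interval of the APOC2 share spans the background, so the number of occupied cell cycle genes was close to that of protein-coding genes in general. The vector share was about as far from its background as counting error allows, since the lower bound of its interval lay just below 5.95%. These intervals cover counting error over genes only.

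**Figure D1:**
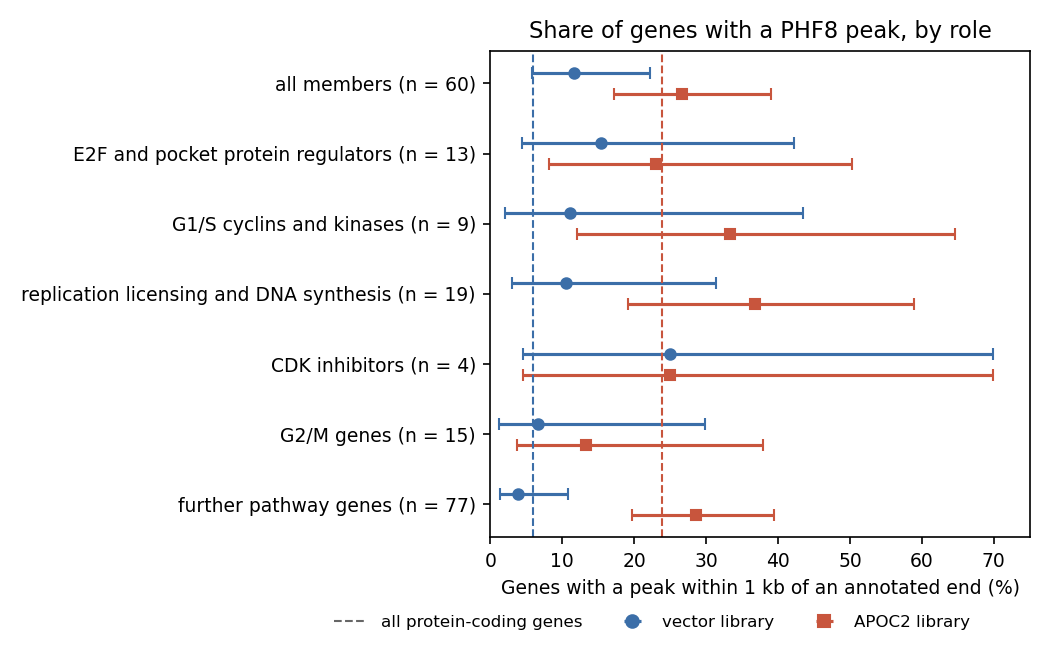
Share of genes with a PHF8 peak within 1 kb of an annotated end (x axis, percent) for all members, each role and the further pathway genes, with 95% Wilson intervals as bars. Dashed lines mark all protein-coding genes, at 5.95% (vector) and 23.8% (APOC2). Each interval drawn reaches across the line of its library.

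By phase, 14 of 45 G1/S members (31.1%, 19.5 to 45.7%) and 2 of 15 G2/M members (13.3%, 3.74 to 37.9%) were occupied in the APOC2 table. In the vector table the numbers were 6 of 45 (13.3%, 6.26 to 26.2%) and 1 of 15 (6.67%, 1.19 to 29.8%). Both tables thus had the higher share on the G1/S side, but the intervals of the phases overlapped in each, and with 15 G2/M genes this difference was not detectable beyond counting error. Against the background, the interval of the G1/S share lay just above 5.95% with vector and spanned 23.8% with APOC2. Without the CDK inhibitors the G1/S share with vector was 5 of 41 (12.2%, 5.32 to 25.5%), and its interval spanned 5.95%. The G2/M intervals spanned the background in both tables.

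Among the E2F and pocket protein genes, 3 of 13 were occupied in the APOC2 table and 2 in the vector table. E2F4 encodes an E2F factor that mostly represses, with the pocket proteins, in resting and early G1 cells. Its peak was the strongest of all members, with a fold enrichment of 9.28 over the local background at the vector peak (chr16:67192117-67192447) and 14.1 at the APOC2 peak (chr16:67192078-67192569). The pileup at the summit, the number of overlapping fragments, was 41.6 and 54 in the units of each table. The APOC2 fold enrichment divided by that of vector gave a log2 ratio of 0.60. Both peaks covered the annotated start of the gene, and the APOC2 value lay at the 99.0th percentile of the 4778 protein-coding genes occupied in that table.

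E2F7 encodes an atypical E2F that represses E2F targets later in S phase. Its vector peak (chr12:77065292-77065539) had a fold enrichment of 5.69, and its stronger APOC2 peak (chr12:77065201-77065549) had 9.34, a log2 ratio of 0.72. The APOC2 table listed a further peak of 6.75 at chr12:77065829-77066074, on the far side of the start, where the vector table had none. E2F5, another repressive E2F, had a peak in the APOC2 table only (chr8:85177156-85177387), with a fold enrichment of 4.24 and a pileup of 24. The activating factors E2F1, E2F2 and E2F3, the repressors E2F6 and E2F8, the pocket proteins RB1, RBL1 and RBL2, the E2F dimer partner TFDP1, and HCFC1 had a peak at an end in neither table. The occupied E2F genes were thus E2F4, E2F5 and E2F7, none of which encodes a classical activator. With a share close to the background, no preference for a type of E2F can be read from these 3 genes.

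Among the G1/S cyclins and kinases, 3 of 9 were occupied in the APOC2 table and 1 in the vector table. CDK2, the kinase partner of cyclins E and A, had the largest difference of any member occupied in both at the 1 kb window. Its fold enrichment was 5.15 with vector, in a peak of 224 bp (chr12:55966834-55967057), and 10.7 with APOC2, in a peak of 778 bp (chr12:55966537-55967314), a log2 ratio of 1.06. The pileups were 24.7 and 39. With a window of 3 kb the vector value came from another, stronger peak beyond the far end of the gene, and the ratio at CDK2 was 0.65, below the 0.72 of E2F7. Both peaks also lay within 1 kb of an end of PMEL, but their midpoints were nearer to CDK2.

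CDK6, a cyclin D kinase, had a peak in the APOC2 table only, which covered its start (chr7:92836469-92836863, fold enrichment 4.75, pileup 21) and was also within 1 kb of CDK6-AS1. CCNE2, cyclin E2, had an APOC2 peak of 3.79 with a pileup of 28 (chr8:94895861-94896162), with its midpoint 681.5 bp from an end of CCNE2 and 212.5 bp from an end of NDUFAF6. The D cyclins CCND1, CCND2 and CCND3, cyclin E1 (CCNE1), CDK4, and the phosphatase CDC25A, which activates CDK2, had no peak at an end in either table.

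Replication licensing and DNA synthesis, the largest role, had 7 of 19 genes occupied with APOC2 (36.8%, 19.1 to 59.0%, beside 23.8%). With vector, 2 of 19 were occupied (10.5%, 2.94 to 31.4%, beside 5.95%). Both intervals spanned the background, so no excess of occupied replication genes was detectable. ORC6, a subunit of the origin recognition complex, had a pair of peaks in each table. The stronger, just inside the gene, had a fold enrichment of 5.70 at the vector peak (chr16:46689676-46689912) and 6.29 at the APOC2 peak (chr16:46689660-46689898), a log2 ratio of 0.14. The other, upstream and nearer to VPS35, had 3.33 and 4.18. The pileups of the stronger peak were 27.7 and 27 in the units of each table, which differ in depth. Scaled to the control, they were 27.7 and 32.4. As scaled fragment counts the ratio was 1.17 (95% exact interval 0.66 to 2.06), so no difference was detectable at ORC6.

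PCNA, the sliding clamp of DNA polymerase, was the other replication gene in both tables. Its fold enrichment was 3.56 at the vector peak (chr20:5127015-5127394) and 3.79 at the APOC2 peak (chr20:5127012-5127256), a log2 ratio of 0.087 and the smallest of the 7. Its pileup was 34.6 with vector and 28 with APOC2. With the pileups scaled to the control, the log2 ratio was -0.043, so the direction at PCNA depended on the measure. The peaks lay upstream of PCNA and their midpoints were nearer to an end of CDS2, at 196.5 bp (vector) and 126 bp (APOC2), than to PCNA. Outside the 1 kb window, the APOC2 table listed a stronger peak inside PCNA (fold enrichment 6.27). Its midpoint was 198.5 bp from another listed start. The vector table listed no such peak inside the gene, so the small ratio describes the upstream peaks only.

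The other 5 replication genes had a peak in the APOC2 table only. CDC45, which with the MCM complex forms the replicative helicase, had 6.47 (pileup 27, chr22:19478871-19479142), at 459.5 bp from CDC45 and 186.5 bp from UFD1. GMNN, the inhibitor of the licensing factor CDT1, had 6.25 (pileup 20, chr6:24775002-24775246), and a second peak of 2.91 further into the gene. CDT1 itself had 5.43 (pileup 32, chr16:88803387-88803620). These fold enrichments lay between the 50.8th and the 68.7th percentile of occupied protein-coding genes.

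MCM4, a subunit of the MCM helicase, had 4.83 (pileup 32, chr8:47959917-47960160). The midpoint of its peak was 902.5 bp from an end of MCM4, close to the limit of the window, and 97.5 bp from an end of PRKDC. TYMS, thymidylate synthase, had 4.17 (pileup 24) in a peak that covered its start (chr18:657618-658208). No peak lay at an end of CDC6 or CDC7, of MCM2, MCM3, MCM5, MCM6, MCM7 or MCM10, of ORC1 or ORC2, or of the ribonucleotide reductase genes RRM1 and RRM2. Of the 6 subunit genes MCM2 to MCM7, only MCM4 was occupied.

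Among the genes listed as CDK inhibitors, 1 of 4 was occupied in each table (25%, 4.56 to 69.9%). The background was 5.95% with vector and 23.8% with APOC2. The occupied gene was CDKN2A, the locus of p16 and ARF. Its fold enrichment was 6.94 at the vector peak (chr9:21995105-21995354) and 9.96 at the APOC2 peak (chr9:21995005-21995636), a log2 ratio of 0.52, with pileups of 12.9 and 17. The local background at the APOC2 summit was 0.808 fragments, so a low pileup gave a high fold enrichment here. The APOC2 table had a second peak of 7.19 at chr9:21995790-21996225. Both strongest peaks covered the outer start of the gene and were within 1 kb of CDKN2B-AS1. Neither table listed a peak inside CDKN2A more than 1 kb from its ends. Which product of the locus these peaks belong to cannot be read from a peak table. CDKN1A (p21), CDKN1B (p27) and CDKN2C (p18) had no peak at an annotated end.

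Of the 15 G2/M genes, CDC20 and FOXM1 were occupied. CDC20 encodes an activator of the anaphase-promoting complex. It had a fold enrichment of 3.34 at the vector peak (chr1:43358466-43358697) and 4.67 at the APOC2 peak (chr1:43358423-43358754), a log2 ratio of 0.48, with pileups of 25.7 and 27. The midpoints of these peaks were nearer to the divergent transcript CDC20-DT, at 91.5 and 84.5 bp, than to CDC20.

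FOXM1, the transcription factor of late cell cycle genes, had a peak in the APOC2 table only (chr12:2877244-2877509). It had the highest fold enrichment of the 9 genes of that class (6.61) and a pileup of 44, and the nearest vector peak was 200.1 kb away. The cyclins CCNA2, CCNB1 and CCNB2, their kinase CDK1, the phosphatases CDC25B and CDC25C, the mitotic kinases PLK1, AURKA and AURKB, the spindle checkpoint genes BUB1 and MAD2L1, the CDK1-inhibiting kinase WEE1, and MYBL2 had no peak at an end in either table.

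**Figure D2:**
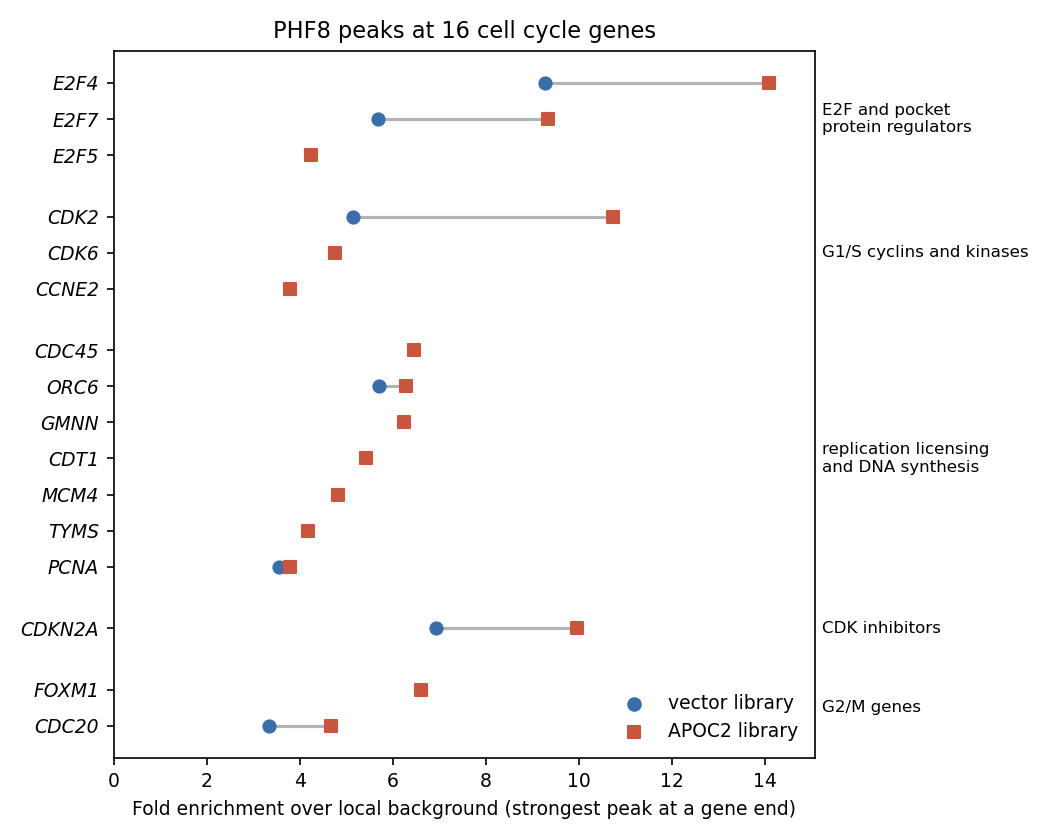
Fold enrichment (x axis, linear) of the strongest peak at each of the 16 occupied members, grouped by role, with circles for the vector and squares for the APOC2 library and a line joining the values of a gene with a peak in both. Genes with a square alone had no vector peak, and their values run from 3.79 (CCNE2) to 6.61 (FOXM1).

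Across the 7 genes occupied in both tables, the log2 ratio of fold enrichment was above 0 in 7 of 7 (beside 89.4% of the 1171 protein-coding genes occupied in both) and at least 1.5-fold in 3 of 7 (E2F4, E2F7 and CDK2; beside 43.5%). No member had a ratio at least 1.5-fold lower (beside 0.256%). The median was 0.52, with a 95% order-statistic interval of 0.087 to 1.06, and over all 1171 genes it was also 0.52 (0.49 to 0.55). With 7 genes and this wide interval, no departure of the median from that of protein-coding genes in general was detectable. As counts of fragments scaled to the assumed depth, the ratio of APOC2 to vector was 1.89 at CDK2 (95% exact interval 1.12 to 3.26) and 1.56 at E2F4 (1.02 to 2.39), and at the other 5 genes the interval included 1. At these 5 a difference in pileup was not detectable at this depth. The local background behind the fold enrichment was lower in the APOC2 table at 7 of 7 genes, and after scaling for depth at 6 of 7. Its part in the ratios was not tested.

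**Figure D3:**
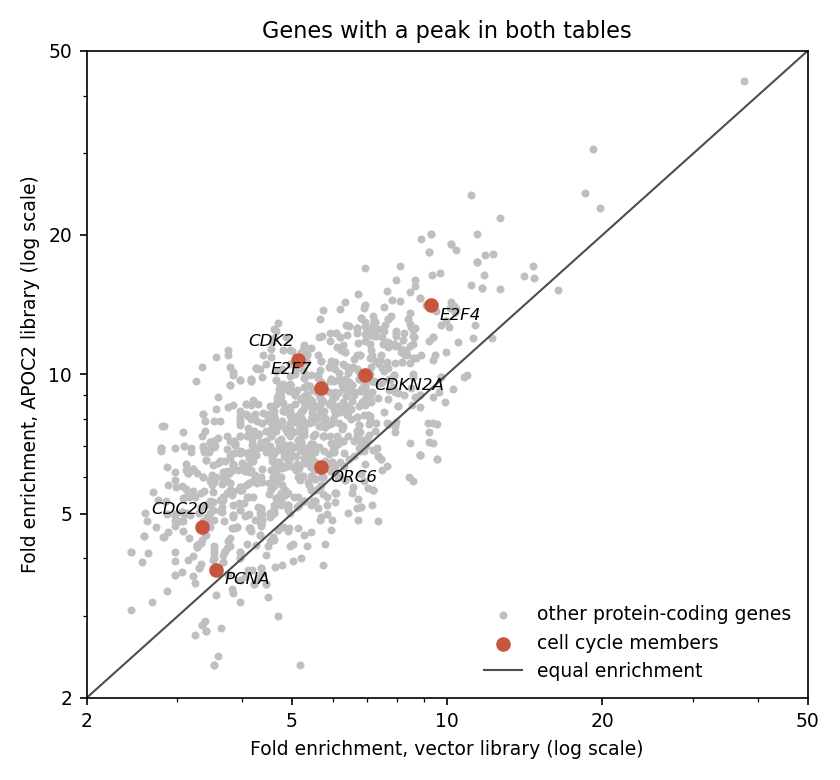
Fold enrichment in the vector (x axis) and the APOC2 library (y axis), both on log scales, for the 1171 protein-coding genes with a peak in both tables. The 7 members lie above the line of equal enrichment and among the grey points of the other genes, with CDK2 farthest from the line and PCNA and ORC6 nearest to it.

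The 9 genes with a peak in the APOC2 table only had a median fold enrichment of 4.83 (4.17 to 6.47), beside 5.004 for the 3607 protein-coding genes of that class. The 7 genes occupied in both had a median of 9.34 in the APOC2 table (3.79 to 14.1), beside 7.24. The lowest fold enrichment of a member in the vector table was 3.34, and 0 of the 9 APOC2 values were below it. The vector table gives no signal where it has no peak, so no ratio could be computed for these 9.

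The peaks were then placed relative to the genes. The strand was known for 48 of the members. Of the 16 occupied in the APOC2 table, 11 were among these, and at 11 of 11 the strongest peak lay at the start of the gene, none at its end only. Over all protein-coding genes with a known strand, 24.0% had an APOC2 peak at the start and 0.486% at the end only. At E2F4, E2F7, GMNN, ORC6, TYMS and CDKN2A the summit of the strongest APOC2 peak was inside the gene, between 100 and 197 bp from the start. At CDK6, CDT1, CDC20, CDC45 and PCNA it was upstream, from position -160 (CDK6) to -484 (PCNA). The reference table gives no exons, so whether a summit was exonic or intronic was not determined.

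**Figure D4:**
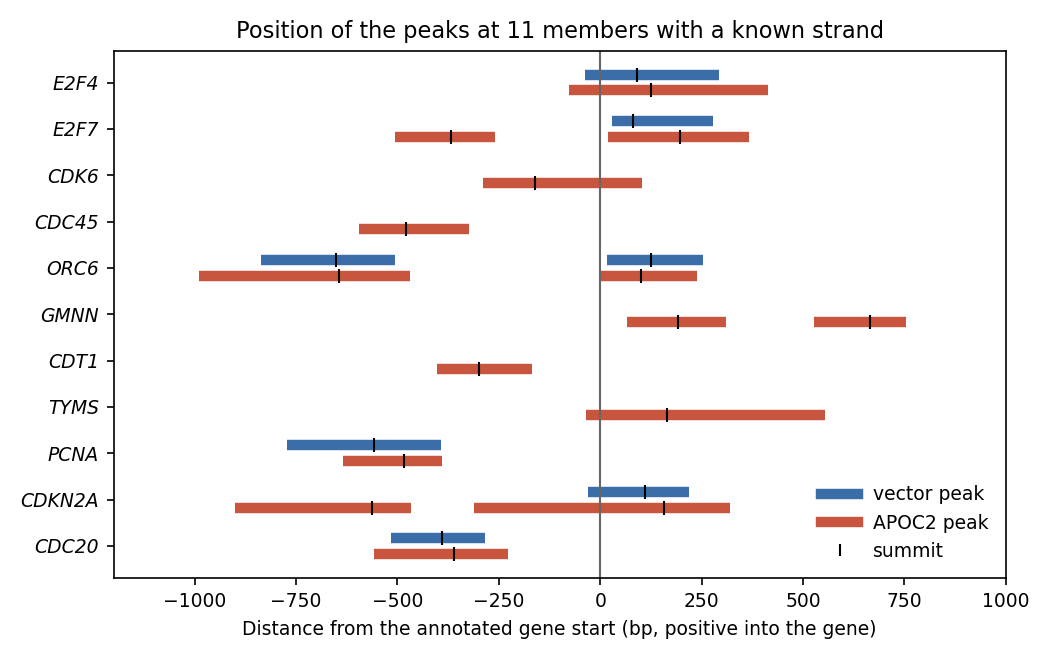
Extent of each peak (bars) and its summit (tick) relative to the annotated gene start (x axis, bp, positive into the gene) at the 11 occupied members with a known strand, vector above APOC2 for each gene. The peaks lie on one or both sides of the start, and the APOC2 table lists a second peak at E2F7, GMNN and CDKN2A where the vector table has none.

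Many of these ends are shared with a neighbour. In the APOC2 table, the strongest peak was also within 1 kb of another gene with a RefSeq transcript at 11 of 16 occupied members (68.8%), beside 50.1% of occupied protein-coding genes. The neighbour was protein-coding at 6 of 16 (37.5%, beside 31.6%). The midpoint was nearer to the neighbour at 5 of the 16, namely CCNE2, CDC20, CDC45, MCM4 and PCNA. For these 5, a peak table cannot tell which gene of the pair the signal belongs to. When peaks at more than 1 protein-coding gene were left out, 10 members remained occupied in the APOC2 table and 4 in the vector table.

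All 4 members on chromosomes 8 and 9 (E2F5, CCNE2, MCM4 and CDKN2A) were occupied in the APOC2 table, and 1 of them in the vector table. Outside these chromosomes, 12 of 56 members were occupied in the APOC2 table (21.4%, 12.7 to 33.8%, beside 22.5% of protein-coding genes there) and 6 of 56 in the vector table (10.7%, 5.004 to 21.5%, beside 4.51%). The APOC2 share was thus below the background without chromosomes 8 and 9 and above it with them, and its interval spanned the background either way. The interval of the vector share spanned the background with these chromosomes and lay above it without them.

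The promoter motifs were counted in windows from 250 bases before to 50 bases after the outer gene start, which the RefSeq promoter table gave for 42 members. For another 6 (AURKB, CCND3, CDKN1A, ORC1, RB1 and TFDP1) it lists windows at other starts only, and these were not used. An E2F motif was present in 14 of 42 windows (33.3%), beside 4.52% of 13819 protein-coding promoters. It was in 13 of 31 G1/S windows (41.9%) and 1 of 11 G2/M windows (9.09%). A CHR was in 6 of 11 G2/M windows (54.5%) and 4 of 31 G1/S windows (12.9%), beside 13.6% of all promoters. A CCAAT box was in 23 of 42 (54.8%, beside 37.2%). The E2F motif was thus the more frequent of the pair in G1/S windows and the CHR in G2/M windows. Examples are printed for E2F1, MCM6, PLK1 and CCNB2. The MCM6 window also held a CHR, outside its printed stretch, and the window of CDK1, a G2/M gene, held both motifs.

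Among the 14 members with an E2F motif, 3 had a peak in the APOC2 table (CDT1, PCNA and TYMS) and 11 had none in either table. The 11 were E2F1, E2F2, E2F3, RBL1, CDC25A, CDK1, CDC6, MCM2, MCM3, MCM6 and MCM7. The motif was thus present in the windows of 3 of 11 occupied members (27.3%, 95% Wilson interval 9.75 to 56.6%). It was in the windows of 11 of 31 unoccupied members (35.5%, 21.1 to 53.1%), and with these overlapping intervals no difference was detectable. Occupied refers here to the gene, and the peak need not lie in the window, as at PCNA. A CHR was present in the windows of 1 of 11 occupied (CDC20) and 9 of 31 unoccupied members. Of the 624 protein-coding genes with an E2F motif in the window, 33.8% were occupied in the APOC2 table (30.2 to 37.6%), against 25.0% (24.2 to 25.7%) of those without it. In the vector table these shares were 7.69% (5.85 to 10.1%) and 5.71% (5.32 to 6.12%). For the CHR they were 17.3% with and 26.6% without in the APOC2 table. A match of these letters is a description of the window and not a binding site.

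The printed stretches also show how far the peaks lay from these motifs. At E2F4 the APOC2 peak covered 77 of the 150 bases and the vector peak 38. At CDT1 the APOC2 peak ended 19 bp before the stretch that holds its E2F motif, and at CDC20 the gap was 77 bp and at PCNA 240 bp. In none of these 3 did a peak cover the printed motifs. Base composition of the windows differed little between the classes. The median was 64.7% G and C for occupied and 62.3% for unoccupied members, with ranges from 49.7 to 78% and from 46.3 to 81.3%.

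Further genes of the pathway were read from a list of 77 that held none of the members. With APOC2, 22 were occupied (28.6%, 19.7 to 39.5%, beside 23.8%) and with vector 3 were (3.90%, 1.33 to 10.8%, beside 5.95%). The 3 were RBBP4, CHAF1B and ORC5, all with G1/S roles, and each was also occupied in the APOC2 table. RBBP4, a histone-binding subunit shared by the DREAM complex and chromatin assembly factor, had 5.61 with vector and 9.94 with APOC2, a log2 ratio of 0.82. CHAF1B, a subunit of chromatin assembly factor, had 3.54 and 7.01 (0.99), and ORC5, an origin recognition subunit, had 4.18 and 7.19 (0.78).

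By phase, 14 of 45 further G1/S genes (31.1%) and 8 of 32 further G2/M genes (25%, 13.3 to 42.1%) were occupied in the APOC2 table. None of the 32 was occupied in the vector table, where the Wilson upper bound was 10.7%. The highest fold enrichments were at CDKN2B, the inhibitor p15 next to CDKN2A (10.5), at RPA1, a subunit of the single-strand binding protein (10.1), and at RBBP4. CDKN2B and RPA1 had no vector peak. The lower G2/M share seen among the members thus went with overlapping intervals here too.

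**Figure D5:**
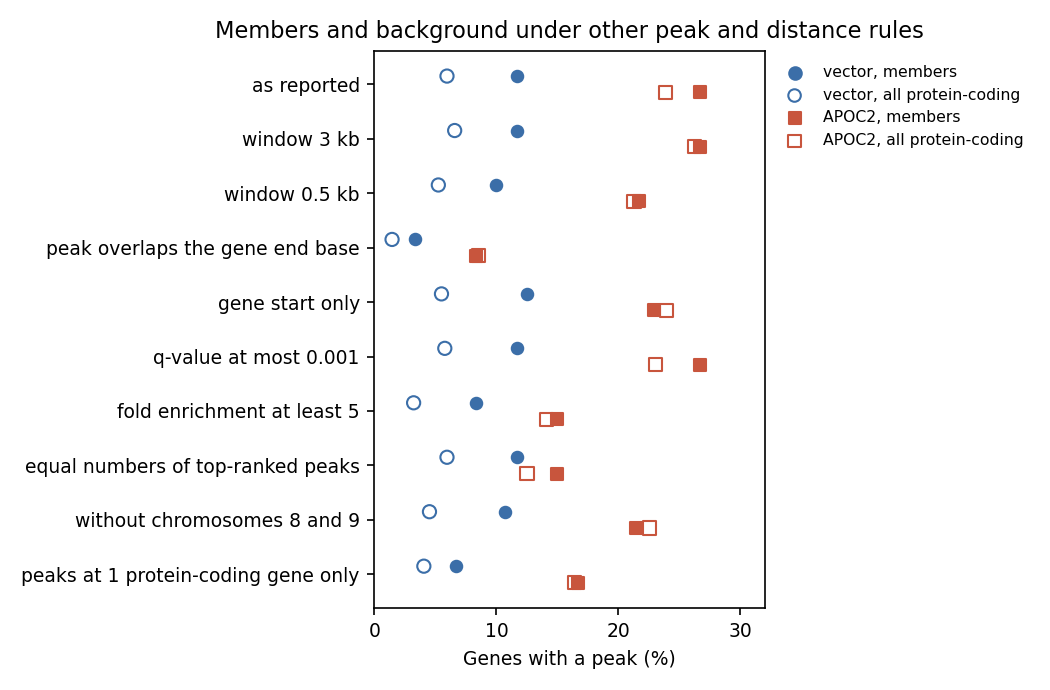
Share of occupied genes (x axis, percent) under each rule for peaks and distance, with filled symbols for the members and open symbols for all protein-coding genes under the same rule. The APOC2 squares of members and background lie close together under every rule, whereas the filled vector circles lie to the right of the open ones.

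The share of occupied members was recomputed under other rules for peaks and distance. In the APOC2 table its interval spanned the background under each of the 9 alternatives drawn. In the vector table it did so under 6 of them, and lay above the background with the gene start alone, with peaks of at least 5-fold enrichment and without chromosomes 8 and 9. With peaks of at least 5-fold enrichment 9 of 60 members were occupied, beside 14.1% of protein-coding genes, and when the peak itself had to cover the end 5 were, beside 8.55%. In the vector table the same rules gave 5 and 2 of 60, beside 3.21% and 1.45%. With equal numbers of top-ranked peaks, 9 members were occupied in the APOC2 table (beside 12.5%) and 7 in the vector table (beside 5.95%). Occupied in both were 5, and in the APOC2 table only 4, classes whose background was not computed under this rule.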

How the data were processed

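PHF8 ChIP-seq peaks were analysed from 2 RKO libraries, vector and APOC2 overexpression, grouped by the treatment in the labels. Per the submitters' processing notes, the tools were Bowtie2 2.2.9, MACS2 2.0 and HOMER, and the build was hg38. The control, the thresholds and the read filters are not given in the sources used here. Per the file headers, the deposited tables give the pileup signal at each summit and the fold enrichment over a local background, here read as (pileup + 1) / (background + 1). Where 2 columns had lost their headers, they were read as -log10 of the p-value and of the q-value deposited by the authors. The Poisson tail of pileup and background gave the listed -log10 p within 0.1 for 99.7% (vector) and 99.9% (APOC2) of the peaks. No listed q-value exceeded 0.0266 with vector or 0.0450 with APOC2.

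Vector pileups were whole multiples of 0.990 and APOC2 backgrounds were spaced by 0.833 (65.6% on this step, searched from 0.7 to 1.01), which gave the relative depth of 0.824 under the assumption of 1 common control. The depth-scaled pileup divides APOC2 pileups by that spacing. Peaks were tied to genes by their midpoint within 1 kb of either annotated end (RefSeq, GRCh38.p14), and the peak of highest fold enrichment stood for the gene. Shares carry 95% Wilson intervals, medians 95% binomial order-statistic intervals, and fragment ratios exact conditional binomial intervals. These cover counting error only, and PCR copies were not marked by molecular identifiers. With 1 library per condition no p-value was given. Each member was named with its class, with values for each occupied one, and from the further genes the 3 highest fold enrichments and the extreme ratios were given. The members and lists were chosen with earlier results of these data known. The assignment rule was tested on simulated peaks. Python 3.11.15, pandas 2.3.3 and scipy 1.17.1 were used.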

Additional observations from a re-analysis of the deposited data

How the results depend on the processing

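Of 120 recomputed counts and medians, 88 stayed within 1.5 times the reported count or within the interval of the median and 32 moved. The median at occupied members in the APOC2 table was set to moved under every measure other than fold enrichment, whatever its value. Windows of 0.5 and 3 kb, a q-value of at most 0.001, the removal of chromosomes 8 and 9 and the use of every listed promoter start moved none of them. When the peak had to cover the end, 2 members were occupied with vector and 5 with APOC2, 3 in the APOC2 table only and 2 in both. By phase these were 2 and 5 G1/S members and 0 and 0 G2/M members, with 7 further pathway genes in the APOC2 table. Among peaks enriched at least 5-fold, the APOC2 table held 9 members, 8 G1/S and 1 G2/M, with 4 in that table only and 12 further genes, and the vector table held 0 G2/M members and 1 further gene. When as many top-ranked peaks were taken from each, the APOC2 table likewise held 9, 8 and 1 with 4 in that table only, and 12 further genes. With the gene start alone, over 48 members, 5 were in the APOC2 table only, and 1 G2/M member was occupied there. Under this rule 5.50% (vector) and 24.0% (APOC2) of protein-coding genes were occupied. With peaks at 1 protein-coding gene only, chosen after seeing the data, the numbers were 4 (vector), 10 (APOC2) and 4 (both), and 3 and 8 for G1/S. The background was then 4.05% (vector) and 16.4% (APOC2). For the classes both and APOC2 only, shares over all protein-coding genes were not computed under the alternatives, so those counts have no background here.

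The median log2 ratio stayed above 0 under each alternative run, but its interval included 0 with raw pileup (0.31, -0.31 to 0.66), depth-scaled pileup (0.57, -0.043 to 0.92) and -log10 p (0.73, -0.078 to 1.42). Where the alternative left fewer than 6 genes, no interval was given. At CDK2 the ratio was 0.65 with a window of 3 kb. The median at occupied members in the APOC2 table was 27 as raw pileup, 32.4 as depth-scaled pileup, 6.94 without the added 1 and 15.0 as -log10 p, in other units than fold enrichment. The log2 ratio reversed at PCNA to -0.31 with raw pileup, -0.043 with depth-scaled pileup and -0.078 with -log10 p, and at ORC6 to -0.037 with raw pileup. The cause was not tested, except that the raw pileups are in units of unequal depth. A member without a peak may still have signal below the calling threshold, and the depth limits what could be called. No paired analysis was possible because each condition had 1 library.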

Other observations

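At 3 members the APOC2 table listed a peak inside the gene and more than 1 kb from both annotated ends, and the vector table listed none. The share of all protein-coding genes with such a peak was not computed. At PCNA this peak (chr20:5119610-5119909) had a fold enrichment of 6.27 and a pileup of 36, above the 3.79 of the peak near its outer start, and its midpoint was 198.5 bp from another start listed for the gene. At CDKN2C (chr1:50970253-50970471) the peak had a fold enrichment of 4.86, a pileup of 11 and a distance of 117 bp to a listed inner start, and counting such starts made CDKN2C the 17th occupied member. At CCNE2 (chr8:94894865-94895141) it was 3.22 with a pileup of 21.

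The 44 members without a peak at an end had none within 3 kb in either table. The nearest APOC2 peak was within 10 kb for 4 of them, CDKN2C, MCM2, ORC1 and MYBL2, and within 100 kb for 25. The nearest vector peak was within 100 kb for 5. The median distance to the nearest peak was 96.8 kb in the APOC2 and 852 kb in the vector table. These distances were not computed for other protein-coding genes, so they have no background here. The APOC2 table also held more peaks (8928, beside 4015 with vector).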
